A study of Mus musculus with 4 samples.

Results

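The platelet-derived growth factor (PDGF) genes were followed in 4 mouse tumours: the ligand genes Pdgfa, Pdgfb, Pdgfc and Pdgfd, the receptor genes Pdgfra and Pdgfrb, and Pdgfrl, a gene named for its likeness to the receptors. They were chosen by gene symbol, and all 7 were found among the 46946 genes of the table. The tumours were untreated, arose per their labels from neural stem cells with PDGF and genotype K27M, and are titled PDGFB K27M. K27M replaces lysine 27 of histone H3 with methionine. The series text speaks instead of tumours from injected DIPG (diffuse intrinsic pontine glioma) cells with mutant histone H3.3, a different origin that these counts cannot decide between. All 4 form a single group, without normal brain, cultured cells or a tumour of another genotype. Age, strain and the promoter driving the introduced PDGF were not analysed here. PolyA RNA was sequenced, and the libraries, called T14, T10, T8 and TUN in the table, held 21664889 to 24369339 counts. Whenever 4 values follow each other they are in this order. The labels name separate tumours but no animals, so p-values measure only the spread between these samples, which may be technical.

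PDGF ligands are secreted pairs of chains held together by disulfide bonds. They bind receptor tyrosine kinases on the cell surface, which pair up, phosphorylate one another and recruit adaptors that start the Ras, PI3 kinase and phospholipase C pathways. In the developing brain Pdgfra marks oligodendrocyte precursor cells (OPCs), for which PDGF-A from neurons and astrocytes is a mitogen, while Pdgfrb marks the pericytes and smooth muscle cells of vessel walls, which respond to PDGF-B from endothelial cells. PDGF-B acts on both receptors, and its introduction into neural progenitors is a standard way to make gliomas in rodents.

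One ligand and one receptor dominated. On the per-length scale of RPKM (counts scaled to library size and to exon length), Pdgfb stood at 532 ± 223 RPKM and Pdgfra at 218 ± 76.8 RPKM (SD, n = 4), ranks 23 and 113 of the 25961 genes with a count. The others stood at 8.79 ± 1.22 RPKM (Pdgfrb), 6.28 ± 0.884 (Pdgfa), 2.70 ± 2.18 (Pdgfd), 1.71 ± 0.315 (Pdgfc) and 0.839 ± 0.46 (Pdgfrl), between the percentiles 48.7 and 75.2 of those genes. All 7 reached 1 CPM (counts scaled to library size, not to length) in every tumour, against 28.2% of the genes of the table.

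**Figure D1:**
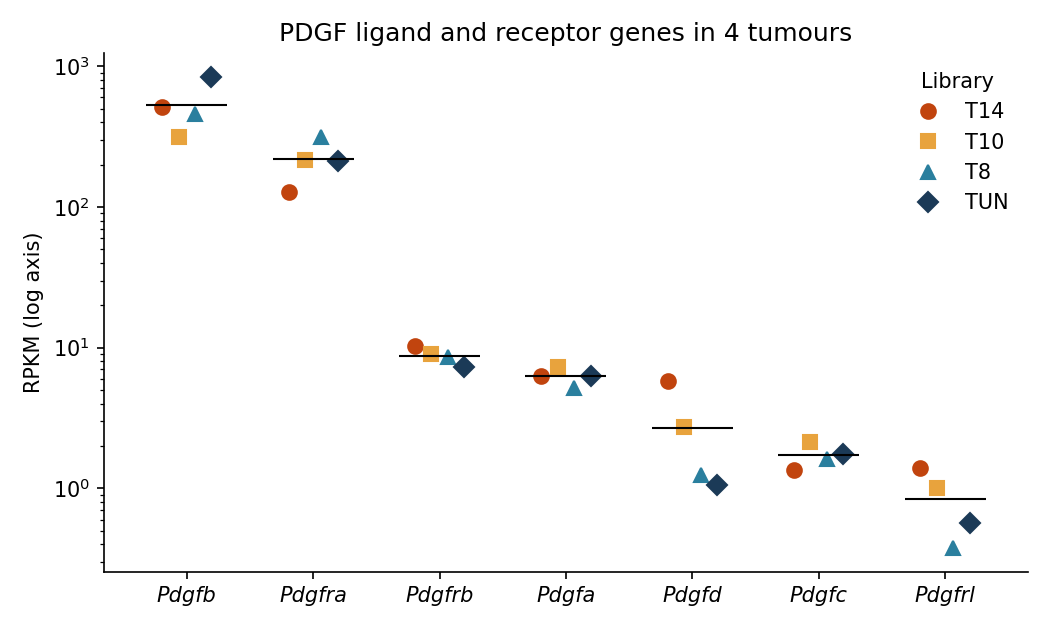
RPKM of each PDGF gene in each library (points, log axis) with the 4-tumour mean (black line), in the order of the means. Pdgfb and Pdgfra lie above 100 RPKM in every library and the other 5 genes below 11.

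Neighbours in this order were compared by the log2 ratio of their RPKM within each tumour, for 6 ratios. A two-sided exact sign-flip test on 4 tumours cannot give a p under 0.125, so no ratio can be called. The order came from the mean RPKM of these same tumours, so positive ratios were favoured in advance and their signs are description only. Pdgfra stood above Pdgfrb by 4.55 ± 0.67 log2 units (SD, n = 4), with 3.62, 4.56, 5.18 and 4.85 in the 4 tumours, the largest step. Pdgfb stood above Pdgfra by 1.27 ± 0.84, Pdgfrb above Pdgfa by 0.48 ± 0.27 and Pdgfa above Pdgfd by 1.49 ± 1.02, each with the same sign in 4 of 4 tumours (exact p = 0.125, adjusted 0.188 over the 6). Pdgfd and Pdgfc did not differ beyond their spread (0.33 ± 1.20, above 0 in 2 of 4 tumours, exact p = 0.875, adjusted 0.875). Pdgfc stood above Pdgfrl by 1.07 ± 0.82, in 3 of 4 tumours (exact p = 0.25, adjusted 0.3). The place of Pdgfb above Pdgfra rests on length. The merged exons span 2918 bases for Pdgfb and 10024 for Pdgfra, and in CPM the mean log2 ratio turned to -0.51. That of Pdgfrb to Pdgfa turned to -1.08 when coding length replaced merged exon length, an alternative chosen after seeing the data.

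Among the ligands, Pdgfb, the PDGF-B chain, had 33779, 22649, 31735 and 55116 counts. This corresponds to 1499, 922, 1330 and 2461 CPM, a range of 2.67-fold. TUN was the highest tumour and T10 the lowest. The gene lies on chromosome 15 at 79995900 to 80014808 on the minus strand (mm10; ENSMUSG00000000489.6), in 7 merged exon pieces. The titles name PDGFB, and whether reads of an introduced copy were counted at Pdgfb was not tested. Of the summed RPKM of the 4 ligand genes, Pdgfb took 97.5%, 96.3%, 98.3% and 98.9%, while the other 3 ligands together stood at 13.4, 12.2, 8.05 and 9.13 RPKM in the same order. The share therefore stayed above 96% across a 2.67-fold range of Pdgfb. The expressed genes on either side did not follow it. Cbx7, 24.8 kb away and called in its own right (adjusted p = 0.0365 in edgeR), was highest in T14 (45.3 CPM) and Rpl3, 63 kb away on the other side, in T8 (87.5 CPM).

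Pdgfb and Pdgfa share enough sequence to raise the question of whether reads could pass between them, so the most alike ungapped stretch of 90 bases in their mouse coding sequences (GENCODE vM21, GRCm38) is shown, with bases identical in the pair in capitals. It covers coding bases 309 to 398 of Pdgfa and 312 to 401 of Pdgfb.
Pdgfa: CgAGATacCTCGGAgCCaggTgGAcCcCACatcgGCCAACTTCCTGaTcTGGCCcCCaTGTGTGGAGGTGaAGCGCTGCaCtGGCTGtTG
Pdgfb: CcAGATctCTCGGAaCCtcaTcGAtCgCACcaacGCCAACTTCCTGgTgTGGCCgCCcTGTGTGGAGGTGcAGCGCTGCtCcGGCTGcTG
Of these 90 bases 68 were identical, but in broken runs. Over the 15 pairs of the 6 members compared in this way (Pdgfrb was not), the longest run of identical bases between coding sequences was 10 to 12. No word of 50 bases from the coding sequences of Pdgfa, Pdgfb, Pdgfd, Pdgfra or Pdgfrl occurred in a transcript of another gene. For Pdgfc 70 of 986 such words did, all in Gm16000, an overlapping gene on the opposite strand. Gm16000 had 0 counts in every library, which allows up to 3 counts or 0.122 to 0.134 CPM. How reads in the shared part were assigned is not stated, so this limit does not bound the reads that fall there.

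Pdgfa, the PDGF-A chain and the classical OPC mitogen, stood at 19.5, 22.9, 16.2 and 19.7 CPM. It spanned 1.42-fold, with the highest value in T10 and the lowest in T8. The gene (ENSMUSG00000025856.15, chromosome 5, 138976014 to 138997370, minus strand) overlaps the opposite-strand gene 6330403L08Rik (9.85, 11.03, 5.99 and 8.04 CPM), and the counting is not stated to use strand, so reads from the shared part cannot be told apart. Beyond it, 19.9 kb from Pdgfa, Prkar1b stood at 225, 265, 104 and 61.2 CPM, and on the other flank Fam20c, 166 kb away, at 46.9, 45.9, 53.5 and 46.6 CPM. Pdgfc, whose chain carries a CUB domain that proteases must remove before it can bind a receptor, stood at 6.92, 10.8, 8.30 and 8.89 CPM, spanning 1.56-fold. It lies on chromosome 3 at 81036416 to 81214040 (ENSMUSG00000028019.9), with expressed genes no nearer than Glrb at 123 kb and Ctso at 719 kb. For both genes T10 was the highest tumour and the groups of values were narrow, with coefficients of variation of 14.1% (Pdgfa) and 18.4% (Pdgfc). Counting error alone would give coefficients of 4.72% and 7.12%.

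Pdgfd, the other ligand with a CUB domain, varied most of the 7. It had 406, 209, 92 and 74 counts, or 18.02, 8.51, 3.85 and 3.30 CPM. T14 was 5.45-fold above TUN, and the exact Poisson intervals (95%, counting error only) of T14 (16.3 to 19.9 CPM) and TUN (2.59 to 4.15 CPM) lay apart, as did that of T10 (7.39 to 9.74 CPM) from both. T8 and TUN could not be told apart at this depth. The mean of 8.42 ± 6.81 CPM (SD, n = 4) rested on T14, without which it was 5.22 CPM. In T14 Pdgfd nearly matched Pdgfa per length (5.78 against 6.25 RPKM), and in TUN it was at 1.06 against 6.33 RPKM. The gene lies on chromosome 9 at 6168612 to 6378843 (ENSMUSG00000032006.14), far from the nearest expressed genes, Casp12 at 796 kb and Dync2h1 at 550 kb. Ddi1, inside its span, had 0 counts in every library. To show how alike the 2 ligand genes with a CUB domain are, their most alike stretch of 90 coding bases, with identical bases in capitals (63 of 90), is printed. It covers coding bases 253 to 342 of Pdgfc and 268 to 357 of Pdgfd.
Pdgfc: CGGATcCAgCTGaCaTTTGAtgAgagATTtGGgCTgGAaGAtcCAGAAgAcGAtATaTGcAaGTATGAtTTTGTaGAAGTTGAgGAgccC
Pdgfd: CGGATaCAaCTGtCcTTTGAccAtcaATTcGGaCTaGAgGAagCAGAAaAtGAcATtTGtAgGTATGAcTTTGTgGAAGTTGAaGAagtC
The pair had different patterns between tumours, and their log2 ratio (Pdgfd to Pdgfc) was 2.01, 0.35, -0.37 and -0.67.

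Pdgfra, the receptor of OPCs, had 28747, 53181, 75401 and 47656 counts, which is 1276, 2165, 3159 and 2128 CPM. T8 was the highest and T14 the lowest tumour, 2.48-fold apart, while T10 and TUN lay close together. The gene lies on chromosome 5 at 75152292 to 75198215 (ENSMUSG00000029231.15), in 27 merged exon pieces. The genes inside its span, Gm42802, Gm42803 and Mir7025, had at most 0.313 CPM. Kit, a related receptor gene and the nearest expressed gene downstream at a distance of 377 kb, was highest in T14 (131, 77.1, 44.7 and 48.7 CPM), where Pdgfra was lowest. Pdgfb exceeded Pdgfra in RPKM 4.04-fold in T14 and 3.97-fold in TUN, but 1.46-fold in T10 and 1.45-fold in T8. The pair of tumours with the larger quotients had both the higher Pdgfb and the lower Pdgfra levels, although Pdgfra differed little between TUN and T10. Of the summed RPKM of both receptor genes, Pdgfra took 92.6%, 96.0%, 97.3% and 96.7%. Upstream, 74.4 kb away, the nearest expressed gene was the transcription factor gene Gsx2 (1.46, 2.56, 0 and 8.08 CPM).

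RefSeq promoter windows (GRCm38.p6, 250 bases before to 50 after an annotated start) were used for Pdgfa (2 windows), Pdgfc, Pdgfd and Pdgfra. Those of Pdgfra, the most abundant receptor gene, and Pdgfd, the most variable ligand gene, are printed 5′ to 3′ on the gene's strand, and capitals mark the motifs searched on both strands: CANNTG (the E-box bound by factors such as Olig2), ACAAAG (bound by Sox factors), TATAAA and GGGCGG. They are chr5:75152001-75152300 and chr9:6168236-6168535, both on the plus strand.
Pdgfra: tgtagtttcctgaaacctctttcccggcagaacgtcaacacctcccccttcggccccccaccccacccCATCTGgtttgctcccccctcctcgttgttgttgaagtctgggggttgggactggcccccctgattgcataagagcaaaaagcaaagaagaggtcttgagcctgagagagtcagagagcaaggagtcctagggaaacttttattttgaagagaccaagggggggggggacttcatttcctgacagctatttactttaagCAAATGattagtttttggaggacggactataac
Pdgfd: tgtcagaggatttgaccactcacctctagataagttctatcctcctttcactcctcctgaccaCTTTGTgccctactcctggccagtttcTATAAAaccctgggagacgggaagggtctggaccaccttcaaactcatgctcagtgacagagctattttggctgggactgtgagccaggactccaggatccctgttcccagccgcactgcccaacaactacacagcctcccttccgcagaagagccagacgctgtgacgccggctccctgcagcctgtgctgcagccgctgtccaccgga
The Pdgfra window held 2 CANNTG, starting at -182 and 18 from the start site, and none of the other motifs. The Pdgfd window held 1 ACAAAG (as its reverse complement) and 1 TATAAA, at -187 and -160. No matches overlapped. Of all 32851 promoter windows, 72.3% held CANNTG, 18.7% ACAAAG, 13.6% TATAAA and 35.7% GGGCGG. The Pdgfc window held 1 ACAAAG, and the Pdgfa windows held 1 and 2 GGGCGG. These matches describe the letters of the windows and were not compared with the levels.

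Pdgfrb, the receptor of mural cells, stood at 56.1, 49.5, 47.1 and 39.9 CPM. It was among the steadiest members, spanning 1.40-fold, with T14 the highest and TUN the lowest. The gene (ENSMUSG00000024620.11, chromosome 18, 61045150 to 61085061) is followed 20.5 kb downstream by Csf1r, the related receptor of microglia, at 111, 102, 88.1 and 81.8 CPM. Upstream, 31 kb away, Slc6a7 stood at 9.05, 11.5, 1.09 and 0.938 CPM (adjusted p = 0.0102 in edgeR). Pdgfrl, which encodes an extracellular protein with no kinase domain, had 99, 77, 28 and 40 counts, or 4.39, 3.13, 1.17 and 1.79 CPM. T14 was 3.75-fold above T8. The Poisson intervals of T8 (0.78 to 1.70 CPM) and TUN (1.28 to 2.43 CPM) overlapped. Counting error alone would give a coefficient of variation of 14.5%, against the observed 54.8%. The gene (ENSMUSG00000031595.9, chromosome 8, 40926212 to 40990785) ends 0.129 kb from Mtus1, which was also highest in T14 (131, 56.4, 38.0 and 17.9 CPM; adjusted p = 0.00939 in edgeR). Whether reads past the end of either gene reach the other was not tested.

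Variation between tumours was tested in edgeR by a goodness of fit, which asks whether a gene varies more than genes of like abundance, with Benjamini-Hochberg adjustment over 14266 genes. It called 4.34% of all genes tested and 0 of the 7 PDGF genes. Pdgfd came nearest (unadjusted p = 0.0346, adjusted p = 0.456 in edgeR, from 0.0872 with a common dispersion to 1 without T14), the 1 member under an unadjusted 0.05, against 8.38% of all genes, and DESeq2 marked 0 members as dispersion outliers. This does not show that the PDGF genes were stable. Genes of like abundance varied with a biological coefficient of variation of 30.8% around Pdgfra and Pdgfb and 46.2% around Pdgfd. The highest tumour exceeded the lowest by a median of 2.48-fold over the 7 genes, against 1.57-fold over all genes tested. The same median was 1.34 to 2.06-fold over the 7 lists of pathway genes described further on. The tumour with the highest level was T14 for 3 members (Pdgfd, Pdgfrl and Pdgfrb; 29.3% of all genes tested), T10 for 2 (Pdgfa and Pdgfc; 20.7%), T8 for Pdgfra (24.9%) and TUN for Pdgfb (25.2%).

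**Figure D2:**
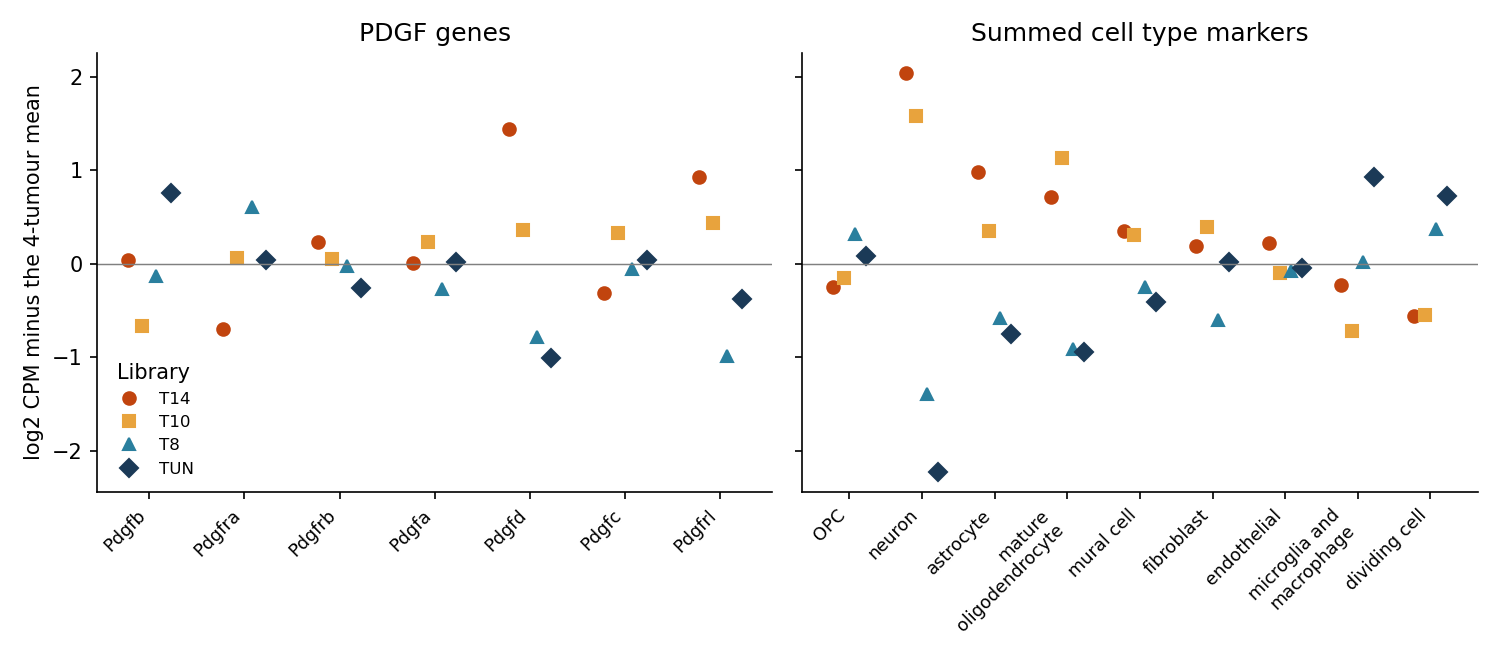
log2 CPM of each PDGF gene (left) and of the summed markers of each cell type (right) in each library, minus the 4-tumour mean. Pdgfd, Pdgfrl and, by less, Pdgfrb are higher in T14 and T10 than in T8 and TUN, while Pdgfra and Pdgfb show other orders. The summed neuron, astrocyte and mature oligodendrocyte markers are also higher in T14 and T10. So are the sums of mural cell markers, nearly level without Rgs5 and Vtn, and of fibroblast markers, highest in TUN without Thy1.

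Cell type markers moved between the same libraries, and in bulk samples fewer cells of a type and less RNA per cell cannot be told apart. Beside Pdgfd and Pdgfrl, the 11 neuron markers, led by Snap25 and Syp, summed to 4143, 3001, 383 and 216 CPM. Of these, 11 of 11 tested passed the goodness of fit in edgeR, but DESeq2 marked only 6 as dispersion outliers. For this and the cell type lists below, the share of all genes tested that passed in edgeR was 4.34%. The 10 astrocyte markers, led by Slc1a3 and Slc1a2, summed to 7244, 4676, 2447 and 2180 CPM (6 of 10 passed in edgeR, 0 in DESeq2). The 10 mature oligodendrocyte markers, led by Mbp, summed to 4142, 5493, 1343 and 1313 CPM (7 of 10 in edgeR, 0 in DESeq2). Of the neuron markers, 9 were highest in T14 and 2 in T10. Of the astrocyte markers, 8 were highest in T14, 1 in T10 and 1 in T8 (Sox9, 101, 111, 239 and 57.3 CPM). Of the mature oligodendrocyte markers, 9 were highest in T10 and 1 in TUN (Cldn11, 93.8, 129, 139 and 155 CPM). Of all genes tested, 29.3%, 20.7%, 24.9% and 25.2% were highest in the 4 tumours. None of these markers had 0 counts in a library. The part of these markers in the levels of Pdgfd and Pdgfrl was not tested.

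Beside Pdgfra, the 10 other OPC markers, led by Olig1 and Ptprz1, summed to 8162, 8714, 12026 and 10209 CPM, and 0 of 10 passed (1 at unadjusted p under 0.05, 0 in DESeq2). Their sum was lowest in T14 and highest in T8, as Pdgfra was. Of the 10, 7 were highest in T8, against 24.9% of all genes tested, while 4 were lowest in T14, 5 in T10 and 1 in T8. Beside Pdgfrb, the 12 mural cell markers, led by Rgs5 and Vtn, summed to 314, 305, 206 and 184 CPM, and 0 of 11 tested passed (2 at unadjusted p under 0.05, 0 in DESeq2). The single markers did not share the order of Pdgfrb: T14 had the highest level for 2 of the 12, T10 for 4, T8 for 3 and TUN for 3. Of all genes tested, 29.3%, 20.7%, 24.9% and 25.2% were highest in these tumours. Without Rgs5 and Vtn, left out after their values were seen, the sums were 127, 123, 112 and 122 CPM. The 9 fibroblast markers, led by Col1a1 and Thy1, summed to 491, 567, 285 and 435 CPM (1 of 9 passed in edgeR, Thy1, and 0 in DESeq2). Thy1, which neurons also express, stood at 192, 216, 35.5 and 29.7 CPM, and without it, a choice made after seeing the values, the sums were 299, 351, 249.1 and 405 CPM. Beside Pdgfb, whose normal brain source includes endothelial cells, the 11 endothelial markers, led by Cldn5 and Pecam1, summed to 265, 213, 215 and 220 CPM (1 of 11 passed in edgeR, Slco1a4, and 0 in DESeq2). TUN, the highest tumour in Pdgfb, was not the highest in this sum. Of the 11 endothelial markers, 4 were highest in T14, 4 in T8 and 3 in TUN, against 29.3%, 24.9% and 25.2% of all genes tested. Cldn5 was among those highest in TUN (68.0, 41.3, 63.8 and 73.8 CPM). TUN had the highest summed markers of dividing cells, led by Top2a and Mki67, at 830, 839, 1586 and 2022 CPM (0 of 10 passed, 3 at unadjusted p under 0.05, 0 in DESeq2). It also had the highest summed markers of microglia and macrophages, led by Lyz2 and C1qa, at 731, 518, 868 and 1622 CPM (1 of 11 passed in edgeR, Lyz2, and 0 in DESeq2). Without Lyz2, also left out after seeing the values, the latter sums were 536, 406, 531 and 671 CPM. Of the 11 markers, 7 were highest in TUN (against 25.2% of all genes tested) and 3 in T14 (against 29.3%), namely Cx3cr1, P2ry12 and Tmem119. None of the markers of these 6 cell types had 0 counts in a library. The part of these cells in the levels of Pdgfra, Pdgfrb and Pdgfb was not tested.

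Genes with the most similar pattern were sought among 10702 genes with mean CPM of 10 or more, by the root mean square distance of log2 CPM centred on the 4-tumour mean, for the 4 members that spanned 2-fold or more. Among the nearest to Pdgfra was Shisa3 (distance 0.038; 8.79, 14.98, 21.66 and 15.58 CPM). Nearest to Pdgfb were the glycolytic gene Pgk1 (0.057; 346, 228, 333 and 563 CPM), Cavin3 (0.091) and Tlr13 (0.10). Nearest to Pdgfd were Mlc1, an astrocyte membrane protein gene (0.034; 247, 114, 55.4 and 47.6 CPM), Tprn (0.037) and Pdk2 (0.074). Nearest to Pdgfrl were Speg (0.063; 61.9, 41.8, 17.8 and 23.8 CPM), Epha3 (0.067) and Oplah (0.092). With 4 tumours many genes lie close by: within a distance of 0.25 there were 364 for Pdgfra, 169 for Pdgfrl, 67 for Pdgfd and 58 for Pdgfb.

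Of genes that act on the ligands before they signal, all 10 listed were detected in every tumour, against 28.2% of the genes of the table. In edgeR 0 of 10 passed the goodness of fit, against 4.34% of all genes tested (0 at unadjusted p under 0.05, against 8.38%, and 0 in DESeq2). Plat, the protease that releases PDGF-C from its CUB domain, stood at 163, 178, 226 and 202 CPM (75.9 ± 10.9 RPKM, n = 4). Per length it far exceeded Plau, which can process PDGF-D (5.92 ± 2.36 RPKM), and Furin, which cleaves the PDGF-A and PDGF-B precursors (6.14 ± 0.583 RPKM); the pair was named after their values were seen. Lrp1, an endocytic receptor that associates with the PDGF receptor beta, stood at 49.6 ± 7.76 RPKM. Downstream of the receptors, all 28 adaptor and effector genes were detected in every tumour (28.2% of the table), with a median span of 1.34-fold. Of these genes 0 of 28 passed, against the same 4.34% (0 at unadjusted p under 0.05, 0 in DESeq2). They were led by the Src family kinase gene Fyn (146 ± 37.5 RPKM) and the adaptor gene Crk (53.6 ± 5.36 RPKM).

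Of 14 negative regulators tested, only Grb10 passed, against 4.34% of all genes tested (adjusted p = 0.0081 in edgeR, 0 of the 14 in DESeq2). It stood at 29.8, 36.2, 113 and 14.7 CPM. Grb10 encodes an adaptor that binds and restrains receptor tyrosine kinases, and T8, where Grb10 was highest, also had the most Pdgfra. A link between these genes was not tested. The call of Grb10 in edgeR was lost without T8 (adjusted p = 1) and without TUN (adjusted p = 0.12), and its adjusted p was as low as 0.00147 without T14. The most abundant per length was the phosphatase gene Ptpn1 (24.6 ± 7.07 RPKM). Cblc was at 0 counts in T14 and T10 and was not tested.

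**Figure D3:**
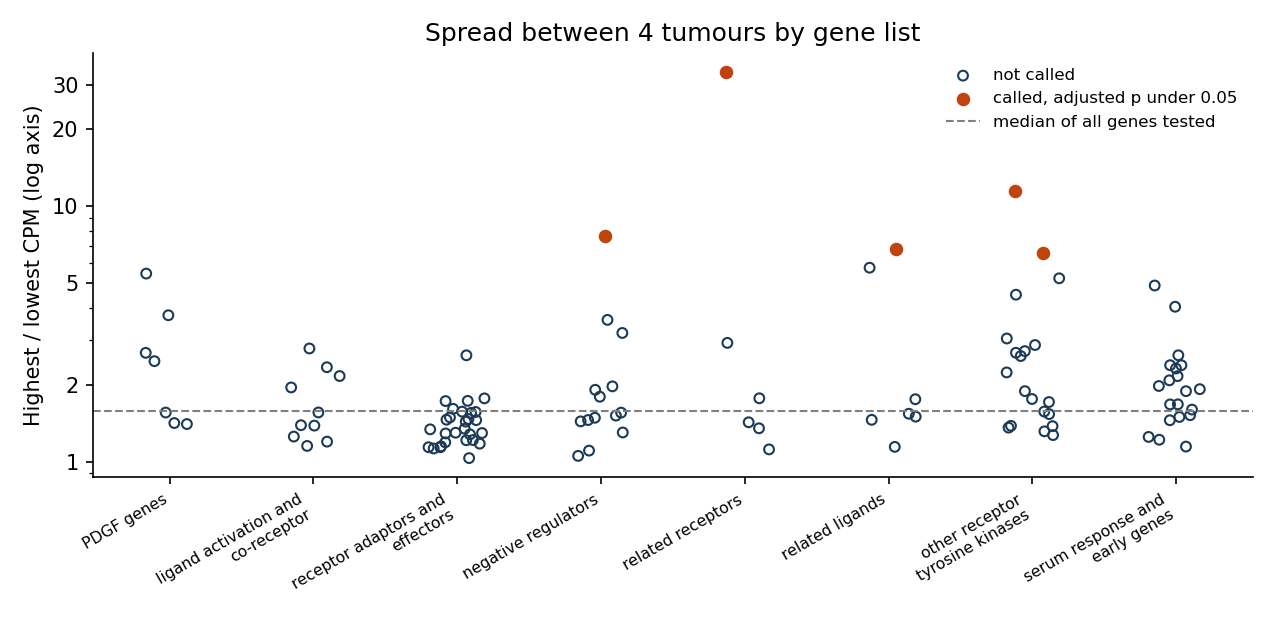
Fold of the highest over the lowest tumour in CPM (log axis) for each gene tested, by list, with genes called by the goodness of fit filled and the median of all 14266 genes (1.57) dashed. The 5 called genes outside the PDGF family are Grb10, Flt3, Kitl, Fgfr2 and Ephb1, and no PDGF gene is called.

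Set against 28 other receptor tyrosine kinase genes per length, Pdgfra ranked 1 of 30 and Pdgfrb 12 of 30. The next were Ddr1, a collagen receptor gene (77.8 ± 16.4 RPKM), and Ntrk2, the BDNF receptor gene (46.7 ± 12.8 RPKM), so mean Pdgfra was 2.80 and 4.66 times their level. In T14, where Pdgfra was lowest, it still stood at 127 RPKM. Of the closest relatives of the PDGF receptors, Csf1r stood at 19.6 ± 2.69 RPKM and Kit at 8.44 ± 4.44 RPKM, the latter near Pdgfrb. Of 6 such genes tested, only Flt3 passed, against 4.34% of all genes tested (adjusted p = 0.000271 in edgeR, 0 of the 6 in DESeq2). Flt3 stood at 14.96, 7.69, 0.88 and 0.447 CPM. Of 20 other receptor genes tested, Fgfr2 (adjusted p = 0.0012) and Ephb1 (adjusted p = 0.022) passed in edgeR, against 4.34% of all genes, and 0 in DESeq2. Fgfr2 stood at 49.6, 37.1, 9.26 and 4.33 CPM and Ephb1 at 50.8, 79.6, 19.6 and 12.1 CPM. Fgfr2 was lost without TUN (adjusted p = 0.135, against 0.00124 with a common dispersion), and Ephb1 without T10 (adjusted p = 0.608) or TUN (adjusted p = 0.325), with a lowest value of 0.00484 without T14. All 3 were higher in T14 and T10 than in T8 and TUN. So were the summed neuron, astrocyte and mature oligodendrocyte markers above, though not every single marker, and their part was not tested.

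**Figure D4:**
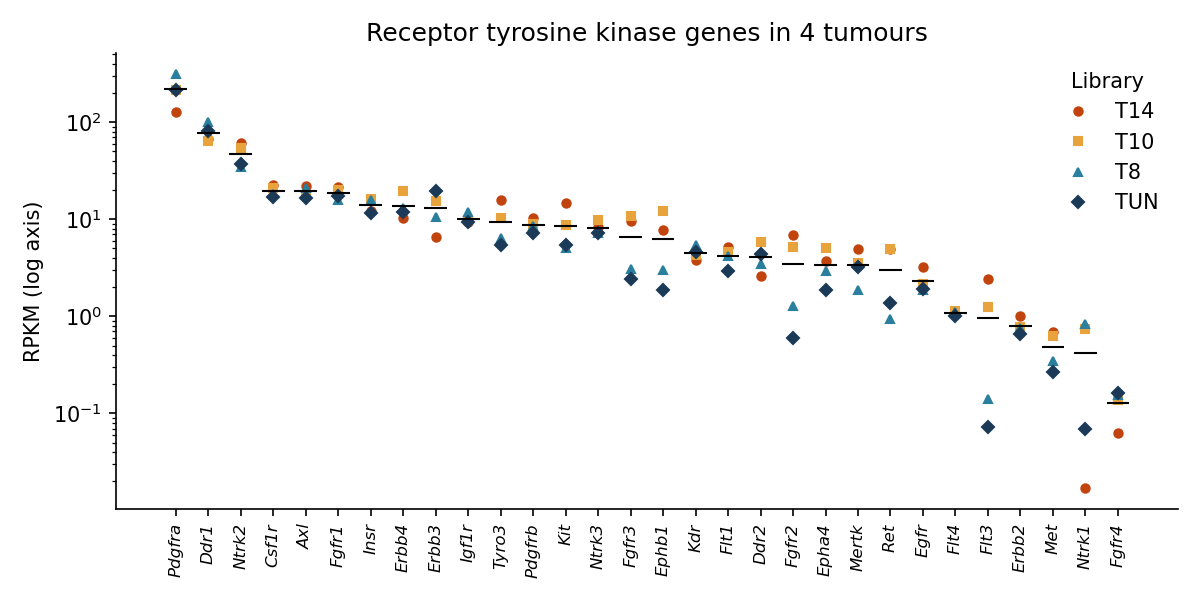
RPKM of 30 receptor tyrosine kinase genes in each library (points, log axis) with the 4-tumour mean (black line). Pdgfra is the highest and Pdgfrb the twelfth.

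Among ligands of the related receptors, Vegfb (31.0 ± 5.48 RPKM) and Vegfa (14.7 ± 2.41 RPKM) led, both above Pdgfa, Pdgfc and Pdgfd and far below Pdgfb. Of 7 tested, only Kitl, the ligand gene of Kit, passed, against 4.34% of all genes tested (adjusted p = 0.00279 in edgeR, 0 of the 7 in DESeq2). Kitl stood at 108, 31.5, 16.9 and 15.9 CPM. It lost its edgeR call without T14 (adjusted p = 1, against 0.00364 with DESeq2 size factors). Kit and Kitl were thus both highest in T14. Flt3l was not analysed here, since its identifier was not matched in the table.

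Early genes and feedback genes that growth factor signalling is known to induce were expressed in every tumour, except Fosb, which stood at 0.754 to 1.42 CPM. The 20 summed to 1842, 1942, 3130 and 2569 CPM. T8, the tumour with the most Pdgfra, was the highest for 15 of the 20, against 24.9% of all genes tested. TUN, the tumour with the most Pdgfb, was the highest for 2, against 25.2%. Whether the levels of Pdgfra or Pdgfb had a part in this was not tested. Dusp6, a phosphatase gene induced by ERK signalling, led at 113 ± 20.6 RPKM, followed by the early transcription factor gene Egr1 at 109 ± 42.7 RPKM (320, 365, 742 and 533 CPM). Of the 20, 0 passed the goodness of fit in edgeR, against 4.34% of all genes tested (1 at unadjusted p under 0.05, 0 in DESeq2). The part of the dividing cell markers, also higher in T8 and TUN, was not tested.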

How the data were processed

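Total RNA of 4 tumours was made into polyA libraries with a TruSeq RNA kit and sequenced on a HiSeq2500, per the labels' protocols. The authors deposited whole-number counts of reads for each gene on mm10, made with STAR and featureCounts per the submitters' processing notes; the table is named for GENCODE vM8. For versions, strand setting and multi-mapped reads the sources used here give nothing. The table's length column, a sum of merged exon pieces in bases, has another unit and was used for RPKM, per the file headers. Table columns matched no single sample title, so each stands for an unnumbered tumour of the group, and 0 columns of sample values were left aside. Symbols were matched by identifier for 46451 of 46946 genes.

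Counts were scaled by TMM in edgeR 4.0.16 (R 4.3.3) after its low-count filter. An intercept-only model at the trended dispersion gave residual deviances, whose chi-square p-values (3 degrees of freedom) were adjusted after Benjamini and Hochberg (threshold 0.05); the step was tested on simulated data. DESeq2 1.42.0 dispersion outliers over the same genes were an alternative. Ratios used log2(RPKM + 0.1), so that those of low genes are understated. Poisson intervals and the limit for a count of 0 (3 counts) cover counting error only.

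The members, 7 pathway lists and 11 cell type lists were chosen with earlier results of these data known. Named genes were, per pathway list, the 2 highest in mean RPKM and up to 4 called; per cell type list, the 2 highest in mean CPM; the 3 nearest in pattern; and the nearest expressed (mean CPM 1 or more) and overlapping genes of each member. Some genes that this rule names are not reported here. Choroid plexus and ependyma markers (led by Ttr and Foxj1) and erythroid and platelet markers (led by Hbb-bs and Hba-a1) are in the closing section. Alternatives were other scalings, no filter, a common dispersion, CPM, a pseudocount of 1, coding length and leaving out each tumour.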

Additional observations from a re-analysis of the deposited data

Results flagged for a closer look

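Of 45 sets of 4 values examined, 4 had a highest or lowest value far from the other 3 by Dixon's ratio (95% critical value). Chance flags about 1 in 20. Kitl stood at 108 CPM in T14 against 31.5, 16.9 and 15.9 CPM (ratio 0.830, just past the critical value). The endothelial markers summed to 265 CPM in T14 against 213 to 220 CPM in the others (ratio 0.870). The choroid plexus and ependyma markers summed to 629 CPM in T10 against 60.6, 49.7 and 11.4 CPM (ratio 0.920). Most of the T10 sum was Ttr, at 34.0, 579, 36.9 and 3.35 CPM. Folr1, Kl and Clic6 were also highest in T10, while Foxj1, Ccdc153 and Tmem212 were highest in T14. Of the markers of this list, 1 of 3 genes tested was called by the goodness of fit in edgeR (Ttr) and 1 in DESeq2, and Tmem212 was at 0 counts in some library. The erythroid and platelet markers summed to 84.3 CPM in T14 against 13.4, 11.4 and 8.53 CPM (ratio 0.936). Of these, 2 of 4 genes tested were called in edgeR (Hbb-bs and Hba-a1) and 0 in DESeq2, and Gp9 was at 0 counts in some library. None of the 7 PDGF genes, of the 6 ratios between them or of the shares of Pdgfb and Pdgfra was flagged.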

How the results depend on the processing

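Among the PDGF genes, the goodness of fit called 0 members under every alternative run. The count over all genes was 619, stayed within 1.5 times of it under other scalings, without the filter and with a common dispersion, and ranged from 423 to 462 when 1 tumour was left out; DESeq2 marked 78 dispersion outliers among the same genes. A first DESeq2 run, over all genes with a count, gave 138, and the filtered set was taken after that number was seen. Without length correction the log2 ratio of Pdgfb to Pdgfra turned to -0.51 and that of Pdgfd to Pdgfc to -0.36. With coding length, an alternative chosen after seeing the data, that of Pdgfrb to Pdgfa turned to -1.08 and that of Pdgfd to Pdgfc to -0.46. Pdgfd to Pdgfc ranged from -0.23 (without T14) to 0.66 when 1 tumour was left out. In these cases the lengths used, or the tumour left out, are what changed. Mean levels of the 7 genes moved by less than their SD between tumours under other scalings. The shares of Pdgfb and Pdgfra did so without length correction. Leaving out 1 tumour cannot move a mean by as much as this SD, whatever the values, so those runs do not test the levels or shares this way. The mean of Pdgfd fell from 8.42 to 5.22 CPM without T14. Calls of pathway genes lost in edgeR stand beside their values, as do the counts of each list in DESeq2. No paired analysis was possible because the tumours form 1 group. Depth limits Pdgfrl, with 28 counts in T8, and the order of T8 and TUN for Pdgfd. Merged exon length sums every annotated piece of a gene, whether or not its transcripts were present.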
